A study of Mus musculus with 21 samples.

Results

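The 9 separated mice of this series form 3 sets of 3 animals with consecutive numbers, and the gene expression of these sets was compared with one another. The sets were 54970 to 54972 (set A), 55066 to 55068 (set B) and 56999 to 57001 (set C). They were formed by animal number, with earlier results of these data known. They make up 9 of the 21 mice of the series, and the other 12 had standard rearing (SR). All mice were male wild type C57BL/6 animals, and poly-A RNA of the hippocampus was sequenced at 10 weeks of age with 1 library per mouse. In maternal separation (MS), a model of early life stress, pups left their dam as a whole nest for 4 hr per day from postnatal day 10 to 17, and most nest material was taken from the home cage. SR nests stayed with the dam. The 12 SR mice form 4 sets in the same way, D (54950 to 54952), E (55000 to 55002), F (55062 to 55064) and G (57137 to 57139).

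The labels name no nest, and each set was taken as 1 nest because its numbers run on. Pups had been balanced over dams within a day of birth, so a nest need not be a biological litter. After weaning, mice were housed with same-sex littermates in groups of 3, so that dam, nest, cage and the date of birth and dissection cannot be told apart within a set. Sets C and G carry the highest animal numbers of their rearing condition and are called the late sets in what follows, and the others early. The labels give no dates, so late and early stand for high and low animal numbers and not for a known time. Mouse A2 (54971) was left out of the main comparison. Levels are given in CPM, the counts of a gene scaled to a common library total after normalization over the 21 libraries. A2 had 420 CPM of Penk, an opioid precursor of striatal neurons, where the other separated mice had 13.7 to 131 CPM, and 20.6 CPM of Prox1, the transcription factor of dentate granule cells, where the others had 70.6 to 143 CPM. Set A therefore held 2 mice, and sets B and C held 3 each. Total counts of these 8 libraries lay between 17276810 and 24052716, and A2 had 30449055.

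A hippocampal dissection holds granule cells of the dentate gyrus, pyramidal cells of the CA fields, interneurons and glia, and can carry pieces of its neighbours. The choroid plexus, a secretory epithelium that makes the cerebrospinal fluid, lies against the hippocampus in the lateral ventricle, and the subiculum and neocortex border it on the other side. Mice of 1 nest share their maternal care and, after weaning, their cage. In bulk RNA, more cells of a type and more RNA per cell cannot be told apart.

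Set C stood apart from sets A and B. In a principal component analysis (PCA) of the 500 most variable genes, the first component held 58.2% and the second 16.7% of the variance. The 3 mice of set C had scores of 3.18 to 15.5 on the first component, and the 5 mice of sets A and B had scores of -8.23 to -3.02. The sets accounted for 66.5% of the variance on these components, a share reached by 18 of the 560 assignments of the mice to sets (one-sided exact permutation test, p = 0.0321, where the smallest possible p was 0.00357). By the same exact permutation test, the share was 52.6% over all components (p = 0.0607), 57.3% with all genes (p = 0.05) and 41.0% with A2 among the mice (p = 0.0536).

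**Figure D1:**
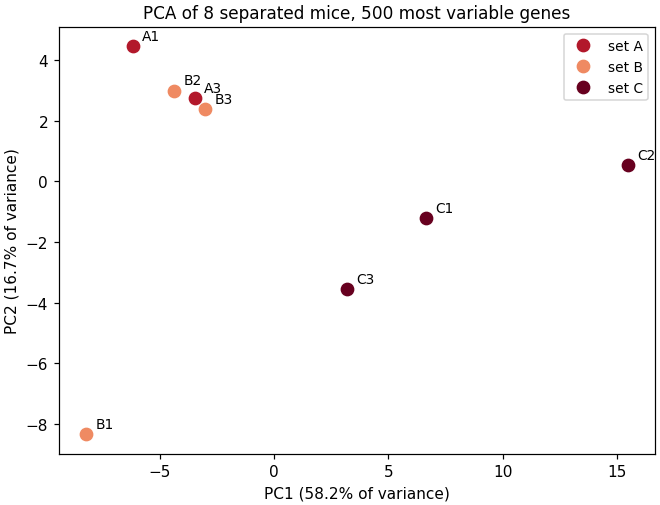
PCA of 8 separated mice on variance-stabilised counts (500 genes of highest variance), with the first component (58.2% of the variance) on the x axis, the second (16.7%) on the y axis and a point per mouse. The 3 mice of set C lie at the right, C2 farthest, sets A and B lie at the left, and B1 is apart from them on the second component.

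Of 18905 genes tested with edgeR's quasi-likelihood test, 18 (0.0952%) differed among the 3 sets at an adjusted p under 0.05, and 1677 had an unadjusted p under 0.05. All 18 were lowest in set C. For each of them, the 3 mice of set C were below the 5 mice of sets A and B, which was the case for 5.95% of all genes tested. The 18 were chosen by a difference among these same mice, so that excess is built in. Set C against the mean of sets A and B gave 64 genes lower in C (0.339%) and 6 genes higher in C (0.0317%). At an unadjusted p under 0.05, 7.94% of all genes were lower in C and 6.07% higher, and for set G against the other SR sets 4.57% were lower and 4.17% higher. Counts of list members at that p are to be read against these shares. DESeq2 gave 253 genes among the sets, which held all of the 18, and 458 genes for set C against A and B (124 higher and 334 lower in C). Counts of list members called by DESeq2 are to be read against these counts over the 18905 genes.

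The number of genes moved with single mice. By edgeR, no gene passed without B2 (1270 had an unadjusted p under 0.05) or with A2 included (1869 had one), where DESeq2 was not run. Without B3, 1 gene passed, and without B1, 3 did. The count was 9 without C1, 23 without C2 and 56 without C3. Set A is left with 1 mouse without A1 or A3, and the counts were then 19 and 325. For set C against A and B the count was 8 without B2, 19 without B1, 24 without B3, 39 without C1, 65 without C2, 201 without C3, 49 without A1 and 519 without A3.

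Cyb561, a transmembrane cytochrome of secretory vesicles (chromosome 11, 105933702 to 105953336, minus strand, GRCm38), had the smallest p. It was at 69.5 CPM in A1, 67.1 in A3, 62.7 in B1, 69.6 in B2 and 67.4 in B3, and at 37.8, 36.0 and 42.1 CPM in C1, C2 and C3. Set C was 1.75-fold lower (log2 difference -0.80 ± 0.08 SE, adjusted p = 0.00359), and sets A and B did not overlap with it. The SR mice spanned 38.5 to 68.1 CPM. C1 and C2 lay below all of them and C3 near their lower end, while A1 and B2 lay above all of them and A3, B1 and B3 near their upper end. Abhd2, a lipid hydrolase (chromosome 7, 79273199 to 79365508), was at 184 and 191 CPM in set A, 176 to 186 CPM in set B and 102.5 to 130 CPM in set C (1.58-fold lower, log2 -0.66 ± 0.08).

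A group of the 18 genes varied among SR mice together with the choroid plexus. Over the 12 SR mice, 334 genes (1.76% of 19023 tested) had a positive slope on the mean level of 18 choroid plexus markers, with the set means in the model, and none had a negative one. These included 8 of the 18 genes, namely Slc31a1, Slc16a8, Sfrp1, Lama5, Ucp2, Fzd4, Abhd2 and 2900040C04Rik, and 29 of the 60 genes lower in set C that were tested there. The slope was computed after the differences among the separated sets had been seen.

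The choroid plexus markers themselves were uneven among the separated mice. Ttr, the transthyretin that this epithelium secretes, was at 2835 CPM in A1, 3761 in A3 and 3074 to 3387 CPM in set B. In set C it was at 832, 23.3 and 1183 CPM, and A2 had 5.30 CPM. Among the SR mice it ran from 10.46 to 4084 CPM, with both ends of that range in early sets. All 18 markers of the list were lower in set C than in A and B, by a median log2 difference of -2.09, and 15 had an unadjusted p under 0.05. None passed the adjusted threshold in edgeR or limma-voom, and DESeq2 called 2, Kl and Prlr. Within set C the lowest value was in C2, and the median difference was -1.54 without C2 and -2.90 without C3.

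Slc31a1, the copper importer (chromosome 4, 62360727 to 62391769), was at 36.8 and 45.5 CPM in A1 and A3, 41.4, 38.1 and 37.2 CPM in set B, and 19.7, 18.1 and 24.8 CPM in set C. Slc16a8, a lactate transporter of epithelia (chromosome 15, 79251014 to 79254761), was at 6.34 and 8.82 CPM in set A, 7.23 to 8.43 CPM in set B and 1.67 to 3.35 CPM in set C. This was the largest difference of a gene of known function among the 18 (3.36-fold lower, log2 -1.75 ± 0.23, adjusted p = 0.0107). The transcript 2900040C04Rik had a log2 difference of -2.39 ± 0.31, from 3.19 to 4.01 CPM in sets A and B to 0.345 to 1.13 CPM in set C.

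Sfrp1, a secreted inhibitor of Wnt signalling, was at 9.26 to 10.6 CPM in sets A and B and at 2.80 to 4.86 CPM in set C (log2 -1.33 ± 0.18), and Fzd4, a Wnt receptor, was at 28.2 ± 1.33 (SD, n = 2), 28.9 ± 1.15 (n = 3) and 15.5 ± 1.88 CPM (n = 3) in sets A, B and C (log2 -0.88 ± 0.10). Lama5, a laminin chain of basement membranes, had a log2 difference of -0.79 ± 0.09. Ucp2, a carrier of the inner mitochondrial membrane, had one of -1.04 ± 0.14. In A2, where Ttr was at 5.30 CPM, Slc31a1 was at 18.2 CPM and Slc16a8 at 1.59 CPM. Abhd2 was at 173 CPM there, near the lowest value of the compared mice of A and B (176 CPM). Sfrp1 was at 12.0 CPM, above their range. A2 was set aside for its striatal and low dentate RNA, and the share of all genes below that range in A2 was not computed. Spint2, a serine protease inhibitor, and Acacb, an acetyl-CoA carboxylase, were also lower in set C (log2 -1.15 ± 0.15 and -1.04 ± 0.12). Their slopes on the choroid plexus markers in SR did not pass the threshold (adjusted p = 0.121 and 0.0695).

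With the choroid plexus level of each mouse as a term in the model, no gene passed among the sets or for set C against A and B in edgeR, the tool used for this model (693 and 1132 genes had an unadjusted p under 0.05). All 18 genes were still lower in set C in that model, with a median log2 difference of -0.77, against -1.04 without the term. The 18 were chosen for a difference among these same mice, so the kept sign is partly built in. The level of the choroid plexus and the sets go together among these 8 mice, since the 3 lowest are the mice of set C.

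**Figure D2:**
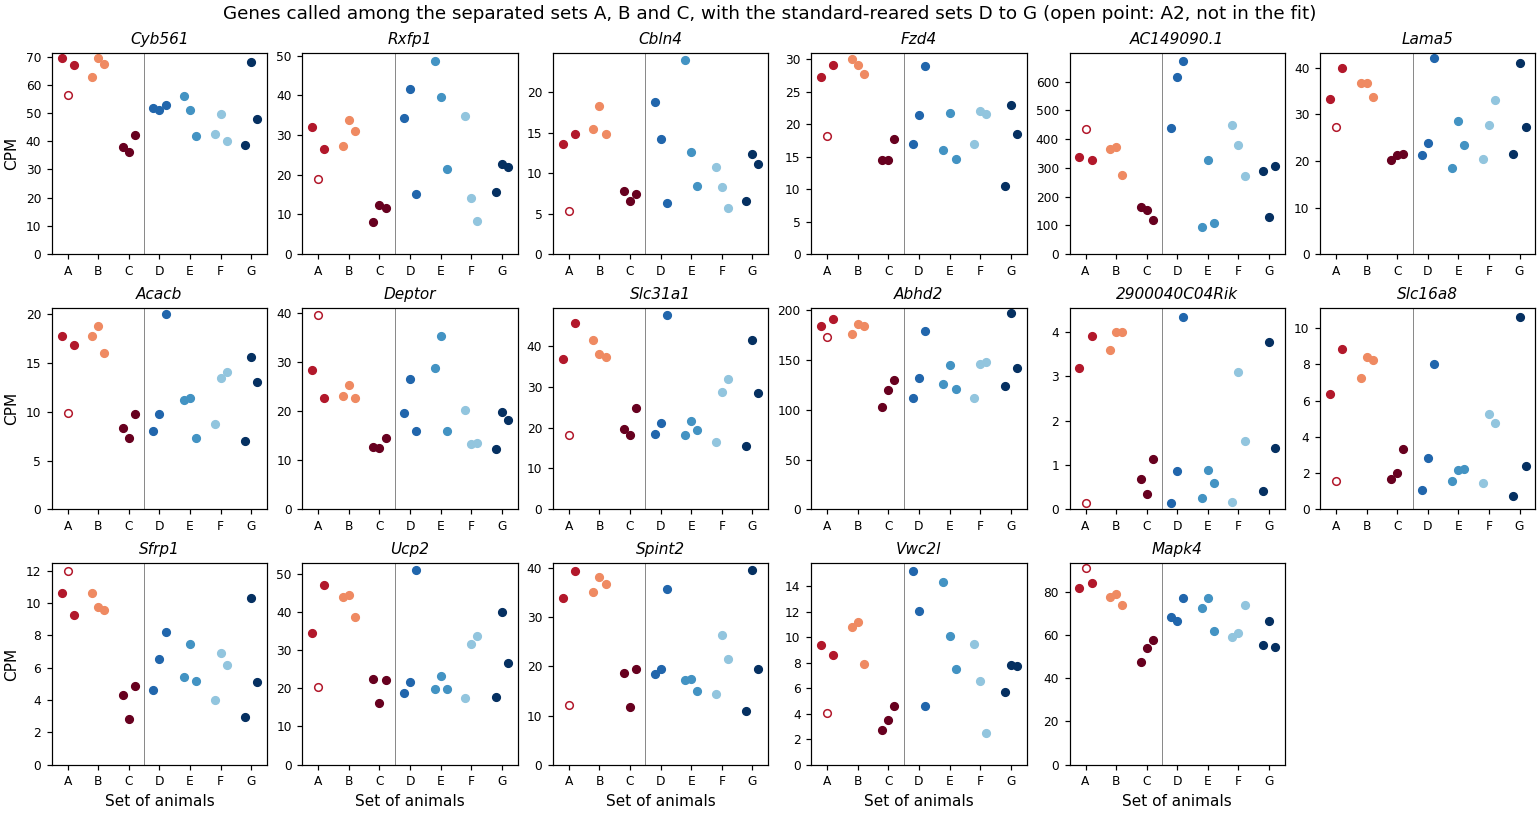
CPM (y axis, linear from 0) of 17 of the 18 genes that differed among the separated sets, with a point per mouse, the separated sets A to C left of the grey line, the SR sets D to G right of it and A2 as an open point. In each panel the 3 points of set C lie below the filled points of sets A and B, while the SR mice spread over much of the same range.

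Other genes of the 18 had no called slope on the choroid plexus markers in SR. Rxfp1, the receptor for relaxin (chromosome 3, 79641611 to 79737880), was at 32.1 and 26.4 CPM in A1 and A3, 27.3, 33.8 and 30.9 CPM in set B, and 8.07, 12.3 and 11.6 CPM in set C. It was 2.81-fold lower in set C (log2 -1.49 ± 0.14, adjusted p = 0.00359). Cbln4, a secreted organizer of synapses (chromosome 2, 172036233 to 172043466), was at 13.6 to 18.2 CPM in sets A and B and at 6.60 to 7.80 CPM in set C (log2 -1.06 ± 0.12). Deptor, an inhibitor of the kinase mTOR (chromosome 15, 55112317 to 55259271), was at 22.6 to 28.4 CPM in sets A and B and at 12.5 to 14.4 CPM in set C (log2 -0.90 ± 0.11). Vwc2l, a secreted protein with a von Willebrand factor C domain, had a log2 difference of -1.39 ± 0.20. In A2, which was left out, Cbln4 was at 5.34 CPM, below every mouse of set C. Rxfp1 was at 19.0 CPM and Vwc2l at 4.08 CPM there, below the compared mice of A and B, and Deptor was at 39.5 CPM, above them.

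These genes also varied within SR sets. Rxfp1 ranged over 8.39 to 48.6 CPM in the SR mice, and within set D it was at 34.2, 41.6 and 15.2 CPM. Over the SR mice, Rxfp1 and Deptor had a positive slope on the mean level of 14 genes of the neocortex and subiculum (adjusted p = 0.0217 and 0.000479), as did 5.68% of all genes tested. Of the 60 genes lower in set C that were tested there, 9 had such a slope. Those 9, listed after their values were seen, include Lgi2, Adcy8, Unc13c and Il1rapl2 besides Rxfp1 and Deptor. For Cbln4 and Vwc2l, the slope missed the threshold (adjusted p = 0.19 and 0.11).

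The neocortex and subiculum list had a median log2 difference of -0.35 in set C against A and B, with 11 of 14 genes lower and 3 of them at an unadjusted p under 0.05. None was called by edgeR, and DESeq2 called Cux2, Nxph4 and Tshz2 lower. In the late SR set G, 13 of the 14 genes were also lower (median -0.23), none at an unadjusted p under 0.05. The mean level of the list, in log2 CPM relative to the mean of 20 mice, was 0.61 in A1 and 0.42 in B1, -0.29 in A3, -0.04 and -0.08 in B2 and B3, and -0.06, -0.55 and -0.25 in set C. Set C overlapped with both A and B for the level of the list. Its median difference was -0.09 without A1 and -0.66 without A3. With this level as a term, no gene passed among the sets in edgeR (919 at an unadjusted p under 0.05), and 13 were lower in set C against A and B, of which 12 were among the 70 genes called without the term.

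AC149090.1, a protein-coding gene on the unplaced scaffold JH584304.1 (52190 to 59690), showed steps between mice. It was at 337 and 329 CPM in A1 and A3, 365, 374 and 275 CPM in set B, and 163, 154 and 118 CPM in set C (log2 -1.21 ± 0.13, adjusted p = 0.00504). Low values also occurred in single SR mice, with 94.1 and 108 CPM in E1 and E3 beside 329 CPM in E2, and 129 CPM in G2 beside 288 and 308 CPM in G1 and G3. D2 and D3 had 617 and 671 CPM. Unplaced scaffolds can hold copies of other sequence, so its counts are uncertain.

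All 14 markers of dentate granule cells were higher in set C than in A and B, with a median log2 difference of 0.29 and 9 at an unadjusted p under 0.05. Of 14 markers of CA2 and CA3 pyramidal cells, 9 were higher (median 0.30) with 6 at that p, and 5 were lower with 2 at that p, Coch (-1.15) and Map3k15 (-0.50). The median was 0.17 without C3. None passed in edgeR, and DESeq2 called 3 CA2 and CA3 markers (Rgs14, Homer3 and Bok) and 1 granule cell marker higher in set C. Prox1 was at 121, 143 and 113 CPM in set C, at 70.6 and 110 CPM in A1 and A3 and at 91.3, 88.0 and 112 CPM in set B. In the late SR set G, all 14 granule cell markers were also higher (median 0.14), 1 of them at an unadjusted p under 0.05. Of the CA2 and CA3 markers, 10 were higher there (median 0.14), none at that p. Over the SR mice, 11 granule cell and 8 CA2 and CA3 markers had a called negative slope on the neocortex and subiculum level. A positive one was called for 2 CA2 and CA3 markers, and 852 of 18544 genes had a negative one. In all genes tested, 9506 were higher and 9399 lower in set C, with a median of 0.0013.

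The 6 genes that were higher in set C had log2 differences of 0.36 to 1.19. Selplg, a ligand of selectins that microglia express, was at 29.5 and 31.5 CPM in A1 and A3, 32.2, 39.7 and 33.7 CPM in set B and 46.3, 46.3 and 43.8 CPM in set C (log2 0.47 ± 0.08, adjusted p = 0.0402). The other 5 were Cyth4, an exchange factor of ARF proteins (0.51 ± 0.09), Phkg1, a subunit of phosphorylase kinase (0.43 ± 0.08), Sipa1l2 (0.40 ± 0.07), Fam19a5 (0.36 ± 0.07) and Gm44799 (1.19 ± 0.22). They are named because there were only 6, after their values were seen. Over the SR mice, 3 of the 6 had a called negative slope on the neocortex and subiculum level, as did 852 of 18544 genes. The 12 microglial markers tested were all higher in set C (median 0.19), with 5 at an unadjusted p under 0.05 and none called by edgeR, DESeq2 or limma-voom. Their mean level was 0.40, 0.20 and -0.14 in C1, C2 and C3 and -0.20 to 0.04 in sets A and B, so that C3 lay within the range of these, and the median was 0.10 without C1 and 0.35 without C3. In the late SR set G, 9 of the 12 markers were higher (median 0.08), 3 of them at an unadjusted p under 0.05. In all genes tested, 4.74% had every mouse of set C above every mouse of sets A and B.

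Insig1, a protein of the endoplasmic reticulum that holds sterol synthesis in check when cholesterol is plentiful (chromosome 5, 28071363 to 28078662), was lower in set C and had a difference of the same sign in the late SR set. It was at 49.4 and 47.1 CPM in A1 and A3, 49.5 to 51.2 CPM in set B and 37.6, 37.3 and 36.3 CPM in set C (log2 -0.41 ± 0.07, adjusted p = 0.0316), and set C did not overlap with A or B. In SR it was at 39.9, 44.2 and 42.6 CPM in set G and at 45.8 to 60.9 CPM in the others (log2 -0.30 ± 0.08, adjusted p = 0.305). The late difference in MS and that in SR differed by -0.11 ± 0.11. A list of 24 sterol synthesis and uptake genes was put together after the differences among the sets had been seen. In it, 19 genes were lower in set C (median -0.12) with 4 at an unadjusted p under 0.05, and 23 were lower in set G (median -0.13) with 7. A2, which was left out, had the highest Insig1 of the 21 mice (70.3 CPM).

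Immediate early genes, which neurons switch on within minutes of activity, were uneven among the sets. Of 28 such genes, 21 were lower in set C than in A and B (median log2 difference -0.27), with 8 lower and 3 higher at an unadjusted p under 0.05. None passed in edgeR or limma-voom, and DESeq2 called 4 among the sets or in set C against A and B (Fos, Arc, Nr4a2 and Dusp1). Fos was at 29.1 and 9.60 CPM in A1 and A3, 11.3, 11.1 and 9.47 CPM in set B and 5.91, 6.60 and 8.81 CPM in set C. The 3 higher genes were Nr4a3, Ptgs2 and Jun, with log2 differences of 0.33, 0.36 and 0.36.

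Mouse A1 set much of this range. Arc, which regulates glutamate receptors at the synapse, was at 363 CPM in A1 and 373 CPM in A2 but at 175 CPM in A3, 159 to 168 CPM in set B and 149 to 173 CPM in set C. The mean level of the list relative to 20 mice was 0.57 in A1, 0.05 in A3, between -0.02 and -0.01 in set B and between -0.10 and -0.07 in set C. The median difference of set C was -0.15 without A1. In SR, 23 of the 28 genes were lower in the late set G (median -0.31), with 13 lower and none higher at an unadjusted p under 0.05. Fos was at 4.06 to 4.88 CPM in set G and 4.95 to 23.8 CPM in the other SR mice.

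Genes induced by glucocorticoids, the stress hormones of the adrenal cortex, had a median log2 difference of -0.36 in set C. Of 19 genes, 16 were lower, 10 of them and 1 higher gene at an unadjusted p under 0.05. None passed in edgeR or limma-voom, and DESeq2 called Map3k6 and Plin4. Map3k6, a stress-activated kinase, was at 5.52 and 6.92 CPM in A1 and A3, 8.39, 6.19 and 5.37 CPM in set B and 4.06, 3.54 and 3.62 CPM in set C. Tsc22d3, which encodes the leucine zipper protein GILZ, was at 63.4 to 75.7 CPM in sets A and B and at 54.7 to 65.0 CPM in set C, where C1 overlapped with B3. Fkbp5, a chaperone that limits the glucocorticoid receptor, was at 57.9 to 75.1 CPM in sets A and B and at 63.9 to 72.7 CPM in set C, within that range.

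The late SR set had the same sign for these genes. In SR, 15 of the 18 glucocorticoid-induced genes tested were lower in set G (median -0.30), 13 of them at an unadjusted p under 0.05. The mean level of the list was -0.08, -0.19 and -0.22 in set C and 0.07 to 0.37 in the 5 other separated mice, and it was -0.16, -0.25 and -0.24 in set G and -0.05 to 0.07 in the other SR mice. Neither pair of groups overlapped. Leaving out each separated mouse in turn gave medians between -0.39 and -0.27 for set C.

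Clock genes, which keep the daily rhythm of the cell, were close to this. Of 18, 13 were lower in set C (median -0.11) with 5 at an unadjusted p under 0.05, and 17 were lower in set G (median -0.18) with 7. The median in set C was -0.06 without A1 and -0.16 without A3. DESeq2 called Per1 and Rora lower in set C, and edgeR and limma-voom called none. Per1, a clock gene that glucocorticoids and neuronal activity also induce, was at 109 to 147 CPM in sets A and B, 93.4, 100.2 and 96.8 CPM in set C and 90.5 to 101.8 CPM in set G. The other SR mice had 113 to 168 CPM. The hour of dissection of each mouse is not given in the sources used here, and its part was not tested.

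**Figure D3:**
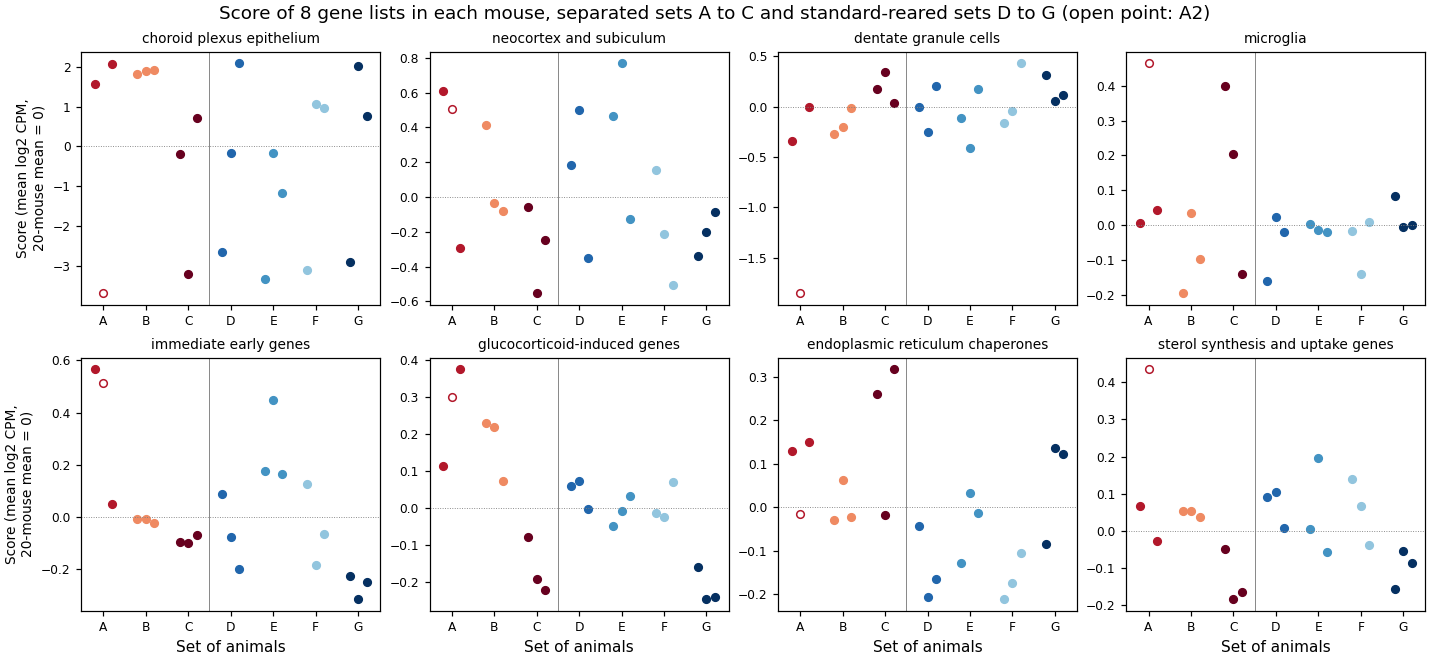
Mean log2 CPM of 8 gene lists relative to the mean of 20 mice (y axis), with a point per mouse, the separated sets A to C left of the grey line, the SR sets D to G right of it and A2 as an open point. Glucocorticoid-induced and immediate early genes are lowest in set C among the separated mice and lowest in set G among the SR mice, while choroid plexus markers are uneven within most SR sets.

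Chaperones of the endoplasmic reticulum (ER), which fold secreted proteins and are raised in the unfolded protein response, had the opposite sign. Of 24 genes, 23 were higher in set C than in A and B with a median log2 difference of 0.12, but none had an unadjusted p under 0.05 and none was called by edgeR, DESeq2 or limma-voom. Hspa5, the main chaperone of the ER, was at 335 and 347 CPM in A1 and A3, 287, 326 and 282 CPM in set B and 408, 286 and 477 CPM in set C. C2 overlapped with sets A and B, and the median of the list was 0.20 without C2 and 0.06 without C3. In the late SR set, 22 of 24 were higher (median 0.17), with 13 higher and 1 lower at an unadjusted p under 0.05. Hspa5 was at 259, 352 and 358 CPM in set G and at 209 to 283 CPM in the other SR mice (log2 0.42), so that G1 overlapped with them.

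Promoters of ER chaperones are known for the ER stress element, a site bound by ATF6. The letters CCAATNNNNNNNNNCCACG were searched on both strands of the 250 bases before each start in the RefSeq table (GRCm38.p6). Of 21 listed genes with a promoter in the table, 9 held the element, and it was found in 0.113% of all 32851 promoters. The sites of 5 of them are shown, with 5 bases on each side. They are the 5 with the largest differences in set C, chosen after their values were seen. Capitals mark the element, on the strand where it reads in this direction.
Hspa5, chr2:34772020-34772048, plus strand: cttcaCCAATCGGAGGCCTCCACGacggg
Calr, chr8:84847070-84847098, plus strand: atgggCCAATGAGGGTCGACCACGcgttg
Pdia6, chr12:17266486-17266514, plus strand: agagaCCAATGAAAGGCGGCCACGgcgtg
Creld2, chr15:88819515-88819543, minus strand: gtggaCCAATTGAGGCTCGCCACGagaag
Derl3, chr10:75893237-75893265, minus strand: gctagCCAATGGGGAAGTCCCACGgtaga
The log2 differences of these 5 genes were 0.29, 0.20, 0.19, 0.25 and 0.33 in set C and 0.42, 0.24, 0.29, 0.13 and 0.51 in set G, in that order. The element was also found before Canx, Hsp90b1, Syvn1 and Dnajc3, whose log2 differences were 0.01, 0.07, 0.07 and -0.04 in set C and 0.09, 0.18, 0.07 and 0.26 in set G. A match says only that these letters are there.

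**Figure D4:**
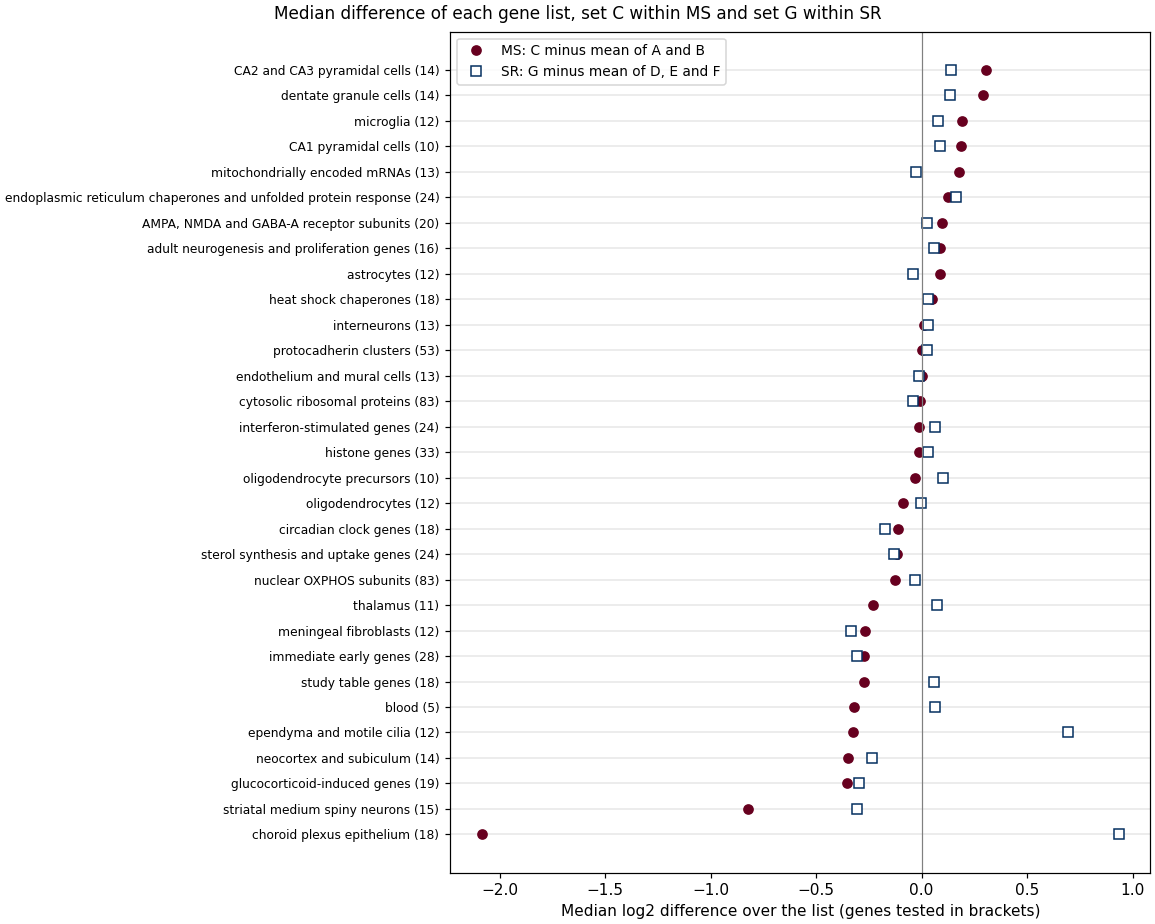
Median log2 difference (x axis) of each gene list for set C against sets A and B within MS (filled circles) and for set G against sets D, E and F within SR (open squares), with the number of genes tested in brackets. Immediate early, glucocorticoid-induced, clock, sterol, and neocortex and subiculum lists are among those left of 0 for both. ER chaperones and the dentate granule cell, CA2 and CA3, and microglia lists are among those right of 0 for both. Choroid plexus and ependymal lists lie on opposite sides.

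Nuclear-encoded subunits of oxidative phosphorylation (OXPHOS), the respiratory chain and ATP synthase, had a median log2 difference of -0.13 in set C, with 61 of 83 lower and 13 of these at an unadjusted p under 0.05. None was called by edgeR or limma-voom, and DESeq2 called 2 lower, Cox6b2 and Cox7c, as it did 334 of all genes. Relative to the 4 SR sets, the median was 0.25 in set A, 0.14 in set B and 0.08 in set C. The mean level was 0.25, 0.00 and -0.28 in C1, C2 and C3, so that 1 set spanned 0.16 and 0.23 of set A and -0.01 to 0.17 of set B. The median was -0.27 without C1 and 0.01 without C3. A trend of expression with transcript length, as Spearman's rho over 19823 genes in each mouse, moved with it, at -0.25, -0.02 and 0.16 in C1, C2 and C3, and its part was not tested. The 83 cytosolic ribosomal protein genes had the same order within set C (0.36, 0.06 and -0.25) and a median difference of -0.01.

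The 13 mRNAs of the mitochondrial genome had a median log2 difference of 0.18 in set C, with 12 higher and 3 at an unadjusted p under 0.05, and of 0.20 in set B against set A. Their mean level was -0.37 in A1, the lowest of all mice, and lay between -0.20 and 0.21 in the other mice of the main comparison. None was called by edgeR, DESeq2 or limma-voom. The median in set C was 0.09 without C2 and 0.29 without C3, and it was -0.02 with the choroid plexus term, where 8 of 13 were lower.

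The 18 genes that the study put forward for the comparison of MS with SR were examined as a group. They were chosen on these samples for a difference of MS from SR, and differences among the separated sets were not part of that choice. None differed among the sets in edgeR, DESeq2 or limma-voom, and 3 had an unadjusted p under 0.05 in edgeR. Against the mean of the SR sets, the median log2 difference was 0.64 in set A, 0.49 in set B and 0.29 in set C. In set C, 13 of 18 were lower than in A and B (median -0.27), 4 of them at an unadjusted p under 0.05. The study reported Zfp46, Eps8l1 and Pla2g4e as lower in MS and the others as higher, and these counts and medians pool both. Eps8l1 had medians of 14.2, 12.1 and 11.5 CPM in A, B and C and 15.9 CPM in SR. Pla2g4e had 5.14, 5.55, 4.23 and 6.68 CPM, so lower in set C was farther from SR for both. Zfp46 had 35.7, 39.9, 39.4 and 47.8 CPM. With the choroid plexus term the median was 0.09 and 8 of 18 were lower, so the direction turned. Those with the smallest p were Gm10243 (means of 5.07, 3.74 and 2.83 CPM in A, B and C), Rpl35a-ps3 (4.83, 3.63 and 2.82 CPM), Tomm7, an import receptor subunit of mitochondria (11.7, 9.48 and 7.79 CPM) and Gng5, a G protein subunit (11.0, 9.96 and 8.20 CPM). Gm10243 and Rpl35a-ps3 are processed copies of other genes, and reads of such copies are uncertain. Their counts were close in each separated mouse (96 and 93 in A1, 60 and 60 in B1, 72 and 80 in C2). They need not be 2 separate measurements.

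Sets A and B were alike by the number of genes called. No gene (0%) differed between them in edgeR, with 376 at an unadjusted p under 0.05, and none in DESeq2 or limma-voom. With 2 and 3 mice, a difference had to be large to pass, and this count does not show that the sets had equal levels. Without A3 the count was 45. Striatal genes, 15 of 15 higher in set B by a median log2 difference of 1.48, were high in 1 mouse: Penk was at 131 CPM in B1 and at 17.0 and 15.2 CPM in B2 and B3, and at 23.4 and 13.7 CPM in A1 and A3. The thalamus list was also highest in B1, and 24 of 28 immediate early genes were lower in set B than in set A (median -0.31). The mean level of the immediate early genes was 0.57 in A1 but 0.05 in A3, beside -0.02 to -0.01 in set B.

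Other lists gave few differences among the sets. AMPA, NMDA and GABA-A receptor subunits had a median log2 difference of 0.10 in set C (13 of 20 higher), with 4 higher, among them Gria1, Gabra2 and Gabra5, and 2 lower, Gria4 and Gabrb2, at an unadjusted p under 0.05. Medians in set C were 0.05 for heat shock chaperones, -0.01 for histone genes, -0.01 for interferon-stimulated genes, 0.00 for clustered protocadherins and 0.09 for neurogenesis genes. Those of other cell types were 0.19 for CA1 pyramidal cells, 0.01 for interneurons, 0.09 for astrocytes, -0.09 for oligodendrocytes, -0.03 for their precursors, 0.00 for endothelium and mural cells, -0.32 for blood, -0.32 for ependyma, -0.83 for striatal and -0.23 for thalamic neurons. Several of these rested on single mice. Striatal genes had a median of -0.09 without B1, thalamic genes one of 0.02 without B1, blood one of -0.09 without C3 and -1.05 without C1, and ependyma one of 0.02 without C2 and -0.72 without C1. With the choroid plexus term, the ependymal median was 0.60. Meningeal fibroblast markers had a median of -0.27, and among them Igf2, a growth factor also made by the choroid plexus, was lower in set C (log2 -1.73 ± 0.27, adjusted p = 0.0311).

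Among the 4 SR sets, 3 of 19023 genes differed (0.0158%), namely Oplah, Klf10 and Sgk1, and 2 were lower in set G than in the other sets (0.0105%), Klf10 and Zfp366. All 4 are named because of the small count. Oplah, an enzyme of glutathione turnover, was at 23.4, 23.6 and 23.2 CPM in set F and at 31.8 to 37.6 CPM in the 9 other SR mice, and at 35.0 to 42.7 CPM in the separated mice of the main comparison. Klf10 was at 16.3 to 21.2 CPM in set G, 26.4 to 34.7 CPM in the other SR mice and 22.3, 28.7 and 23.4 CPM in set C. DESeq2 gave 93 and 60 genes for these comparisons.

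The late difference within MS was compared with that within SR in 1 model over 20 mice. No gene (0%) of 19856 differed between the conditions in edgeR, with 1622 at an unadjusted p under 0.05, and DESeq2 gave 23. Of the 18 genes, 8 were lower and 10 higher in set G than in the other SR sets, 2 of them lower at an unadjusted p under 0.05 (Mapk4 among them). For Cyb561 the late difference was -0.80 in MS and 0.09 in SR, and the difference between them was -0.89 ± 0.18 (adjusted p = 0.443). Relative to the 4 SR sets, the 64 genes lower in set C had a median log2 difference of 0.57 in set A, 0.57 in set B and -0.46 in set C. The 3 mice of set C were below all 12 SR mice for 4 of these 64 genes, and for 0.524% of all genes tested. The 64 genes were chosen in these same mice for low values in set C. An excess over all genes is thus built in, and the medians also depend on that choice. Set C is the only late set in MS, so that a difference of this nest and one of animals with high numbers cannot be told apart.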

How the data were processed

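Hippocampal poly-A RNA was sequenced with 1 library per mouse. The authors aligned reads to GRCm38 with STAR 2.7.3a and counted them per Ensembl gene with featureCounts, per the submitters' processing notes and the methods of the study, and deposited raw counts. Whether counting used the strand is not given in the sources used here, so antisense partners cannot be told apart. Counts were filtered with filterByExpr (minimum count 10 within sets), normalized by TMM and tested with the quasi-likelihood test of edgeR 4.0.16 (robust fit, R 4.3.3), with Benjamini-Hochberg adjustment over all genes tested and a threshold of 0.05. The contrasts were any difference among sets A, B and C, C against the mean of A and B, and B against A, and the same within SR. SE is the log2 difference divided by the square root of F. CPM values and means of log2 CPM (prior count 2) use 1 TMM scaling over 21 libraries. Intervals and p-values cover the spread between mice of a set, and low counts carry more counting error. DESeq2 1.42.0 gave the variance-stabilised counts for the PCA and, with limma 3.58.1, alternative tests. The code was tested on simulated data. Symbols and positions are those of GENCODE M21 (55227 of 55487 genes matched).

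The sets, the gene lists and the tests were chosen with earlier results of these data known. Genes named are the 10 with the smallest p, the 5 of largest log2 difference in each direction among those called, with a mean of at least 1 CPM, up to 4 called members per list, and up to 4 of the study's 18 genes. Others are named with their list, by size of difference or p, after their values were seen. Alternatives were all 9 separated libraries, other filters, scalings and tests, a spread shared with SR, the choroid plexus level as a term, and each mouse left out. Terms and slopes for neocortex and subiculum, the choroid plexus slope in SR and the sterol list were added after seeing the data. No libraries of a set agreed within sampling noise (a chi-square of 4.28 or more times its degrees of freedom). Single-gene results for a few genes counted in the totals are not reported here.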

Additional observations from a re-analysis of the deposited data

Results flagged for a closer look

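Among the mean levels of 30 gene lists over the 9 separated mice, 7 had 1 mouse whose gap to its neighbour was more than 0.493 of the range, where chance gives about 1 in 20. For A2, these were dentate granule cells (-1.85), CA1 pyramidal cells (-1.278), CA2 and CA3 pyramidal cells (-0.5448), endothelium and mural cells (0.6413) and sterol synthesis and uptake genes (0.4352), in log2 CPM relative to the mean of 20 mice. A2 had been set aside for its low dentate and high striatal RNA, so the dentate value describes that choice. The other lists were not part of that choice, but they were measured in the same library and are no independent sign. B1 stood apart for thalamus markers (0.9375, next 0.1125). C3 stood apart for nuclear OXPHOS subunits (-0.2775, next -0.01062).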

How the results depend on the processing

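Counts of genes moved with the processing, and the cause was not tested unless fewer mice or more genes tested set it. Among the 3 separated sets, the 18 genes became 0 with all 9 libraries, 0 with the spread shared with SR, 0 with the choroid plexus term, 0 with the neocortex and subiculum term (added later), 36 with limma-voom, 253 with DESeq2 and 834 without a filter, and 0 to 325 with a mouse left out. The 3 wider counts held all 18. For set C against A and B, the 70 genes became 8 with all 9 libraries, 30 with the shared spread (16 higher and 14 lower, 13 of them among the 70), 0 and 13 with the terms, 458 with DESeq2 (124 higher and 334 lower), 961 without a filter (337 higher and 624 lower), and 8 to 519 with a mouse left out. Higher genes were 6 of 70 in the main fit. For B against A, the count of 0 became 18 without a filter and 0 to 45 with a mouse left out. In SR, the 3 genes among sets became 91 without a filter, 93 with DESeq2 and 1 to 14 with a mouse left out, and the 2 genes of set G became 61, 60 and 1 to 10. The difference between MS and SR (0 genes) became 546 without a filter, 23 with DESeq2 and 0 to 2 with a mouse left out. By exact permutation test, the PCA share of 66.46% became 41.01% (p = 0.05357) with all 9 libraries, 57.27% (p = 0.05) with all genes and 52.58% (p = 0.06071) with all components, and 56.28% to 71.95% with a mouse left out, where p was 0.01905 to 0.09524 and over 0.05 in 5 of 8 cases (without A1, B1, C1, C2 or C3). DESeq2 size factors and a minimum of 10 counts in every library kept counts within 1.5 times. None of the 18 called genes, nor of 18 others followed through the same alternatives, reversed its direction, and other named genes were not followed. Of 300 list medians recomputed, 8 moved by more than the spread between mice. A set left with 1 mouse is assumed to vary like the others. Sets of 2 or 3 mice limit what can pass, and genes of few counts are the least certain.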
